A study of Homo sapiens with 24 samples.

Results

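MAT2A, MAT2B, and METTL16 were followed through Met stress as the 3 named genes of S-adenosylmethionine (SAM) supply and sensing, chosen by gene symbol from the 26645 gene entries of the count table, and all 3 were among the 14741 entries that passed the low-count filter. Poly(A) RNA was measured in 24 libraries, 3 for each of 8 groups. MB468 (MDA-MB-468, a triple-negative breast cancer line that cannot proliferate without Met) and MB468res-R8 were each sampled at 0 h in Met+ medium with 100 µM Met, and again once they had spent 0.5, 2, or 12 h in Met-Hcy+ medium, in which 370 µM homocysteine (Hcy) stood in for Met. All media held dialyzed serum, added cysteine, glutamine, and vitamin B12. MB468res-R8 is 1 clone derived from MB468 that proliferates in Hcy medium, so a difference between the lines is a difference from that clone. The libraries were labelled as replicates, and whether each came from its own culture is not given in the labels, so that p-values measure only the spread between these libraries. No library came from cells given fresh Met+ medium for the same time, so medium change and time in culture cannot be told apart from the loss of Met.

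MAT2A is the catalytic subunit of methionine adenosyltransferase II, which joins Met and ATP to SAM, the methyl donor of the cell. MAT2B is the regulatory subunit that binds it, and MAT1A is the related catalytic subunit of adult liver. METTL16 is an RNA methyltransferase that places N6-methyladenosine (m6A) on hairpins in the 3' untranslated region (3' UTR) of the MAT2A mRNA. When SAM is ample it methylates these hairpins and MAT2A mRNA is kept low, and when SAM is scarce it stays bound to them and favours splicing of the last intron of MAT2A, which gives more mature mRNA. The methyltransferase and the synthetase mRNA thereby form a feedback loop that reads SAM.

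The 3 genes lie on separate chromosomes of GRCh38. MAT2A lies on the plus strand at chr2:85539168-85545281, MAT2B on the plus strand at chr5:163503114-163519558, and METTL16 on the minus strand at chr17:2405562-2511891. GENCODE lists 6 transcripts of MAT2A, of which 3 retain an intron, and the table holds 1 count per gene, so that spliced and intron-retaining MAT2A RNA were counted together.

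The METTL16 target sites are shown because they are the part of the MAT2A mRNA that the loop reads. A search of the plus strand of MAT2A for TACAGAGAA or TACAGAAAA, the letters of the methylated loop, found 6 matches. All 6 lay in the 3' UTR, in exon 9, and each is printed below from the reference genome with 10 bases on either side and the motif in capitals.
MAT2A, chr2:85543802-85543830: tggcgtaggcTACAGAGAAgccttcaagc
MAT2A, chr2:85544589-85544617: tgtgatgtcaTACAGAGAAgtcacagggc
MAT2A, chr2:85544774-85544802: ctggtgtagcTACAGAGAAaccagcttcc
MAT2A, chr2:85544889-85544917: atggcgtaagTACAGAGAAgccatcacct
MAT2A, chr2:85545004-85545032: caaggtgtccTACAGAAAAaccttgggtt
MAT2A, chr2:85545112-85545140: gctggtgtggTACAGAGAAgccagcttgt

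In 5 of the 6 sites the motif was TACAGAGAA, and the site at chr2:85545004-85545032 held TACAGAAAA. By their letters, bases beside the motif can pair with each other, as in the site at chr2:85545112-85545140, where gctggt stands before it and gccagc after it. Whether these bases paired in the predicted folds was not tabulated. In a predicted fold of each site with 20 bases on either side of the motif (49 bases), the motif had 9, 7, 6, 9, 9, and 4 of its 9 bases unpaired, in the order printed. The 3' UTR of MAT2A is 1509 bases long. Of 7682 annotated 3' UTRs of at least that length, MAT2A among them, 4.19% held a match in their first 1509 bases. MAT2A was the 1 that held as many as 6. Both motifs searched are those of the MAT2A sites, so the place of MAT2A is not independent of the choice of motif. The 3' UTRs of MAT2B and METTL16 held 0 matches, where 2.71% of 9998 and 9.92% of 2239 3' UTRs of at least the same length held one in as many bases. The same search of the whole METTL16 gene found matches in its introns, at chr17:2470189-2470197, chr17:2473914-2473922, chr17:2496241-2496249, and chr17:2496639-2496647. Their motifs had 8, 9, 9, and 9 of 9 bases unpaired in the same kind of fold, so this count does not set the MAT2A sites apart. These matches are a description of the letters, and binding and methylation were not measured here.

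The libraries held from 11713037 to 36402932 gene counts, and each of the 3 genes had at least 593 raw counts in every one, so counting error alone was at most 4.11% of a value. The epithelial markers EPCAM, KRT8, KRT18, KRT19, KRT5, KRT14, CDH1, and EGFR were at 69.8 CPM (counts relative to library size) or more in every library. Of the other markers, PGR, PTPRC, CD3E, COL3A1, DCN, and ALB were at most 0.427 CPM, ESR1 ranged from 4.15 to 22.6 CPM, and MAT1A from 1.2 to 4.31 CPM. CD68 ranged from 2.85 to 10 CPM, COL1A1 from 14.6 to 73.2 CPM, PECAM1 from 0.344 to 2.67 CPM, and VWF from 0.0393 to 1.56 CPM, and their part in the results was not tested. The library MB468 2 h replicate 2 stood apart with 8251 counts of RN7SK, a small nuclear RNA, where the other 23 had from 44 to 357, and values without it are given where they bear on a result.

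MAT2A was the most abundant of the 3 genes per kilobase of exon in all 24 libraries. On the RPKM scale (CPM divided by the kilobases of merged exons), MAT2A in Met+ medium stood at 86 ± 2.31 in MB468 and 92.3 ± 5.32 in MB468res-R8 (mean ± SD, n = 3). MAT2B stood at 9.13 ± 0.385 and 10.3 ± 0.691 RPKM, and METTL16 at 6.24 ± 0.358 and 6.46 ± 0.112 RPKM, in the same order. The mRNA of MAT2A per kilobase was thus 9.42 ± 0.39 times that of MAT2B in MB468 and 9.04 ± 1.15 times in MB468res-R8. Protein was not measured. METTL16 was below MAT2B in 7 of the 8 groups, and the exception was MB468 at 12 h, with 15.6 ± 0.059 RPKM for METTL16 and 8.38 ± 0.277 for MAT2B. The levels rest on annotated lengths of 4485 bases of merged exons for MAT2A, 8700 for MAT2B, and 8934 for METTL16. The ratios between genes move with the length used. With the longest transcript as length, MB468 at 0 h had 137 RPKM for MAT2A and 18 for MAT2B.

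In Met+ medium the lines differed little in these genes. Normalized counts (counts scaled to the mean effective library size) of MAT2A at 0 h were 8616, 8652, and 9040 in MB468 and 9386, 9982, and 8898 in MB468res-R8, and the groups overlapped. The difference between the lines in MAT2A, 0.10 on the log2 scale (SE 0.0474), missed the threshold with an adjusted p of 0.0615 in edgeR's quasi-likelihood test, and was -0.21 with the spike-in RNAs as library sizes (adjusted p = 0.158). MAT2B at 0 h was at 1722, 1869, and 1830 in MB468 and at 2090, 1877, and 2133 in MB468res-R8, and every MB468res-R8 library was the higher. This difference of 0.17 (SE 0.0562, adjusted p = 0.01) passed, where 53.5% of all genes tested were called between the lines at 0 h. With the spike-in RNAs as library sizes it turned to -0.14 (adjusted p = 0.388), and it lost the call without MB468 0 h replicate 1 or without MB468res-R8 0 h replicate 1 or 3 (0.14 each). METTL16 at 0 h was at 1188, 1284, and 1331 in MB468 and at 1330, 1320, and 1287 in MB468res-R8, a difference of 0.05 that did not pass (adjusted p = 0.37, 95% interval -0.05 to 0.15) and was -0.26 under spike-in library sizes (adjusted p = 0.0909).

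The spike-in scaling moved the median of all genes, by -0.20, -0.42, and -0.23 on the log2 scale in the MB468 responses at 0.5, 2, and 12 h, by 0.04, -0.04, and 0 in those of MB468res-R8, and by -0.31 between the lines at 0 h. Changes below are on the scale in which the bulk of genes does not move. The paper names the spike-ins with library preparation, as a control for variation in preparing samples. The shift of the median therefore does not measure RNA per cell or cell number, and what moved it was not tested. Spike-in values of the 3 genes that lose or gain a call or turn in sign are given beside each result.

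**Figure D1:**
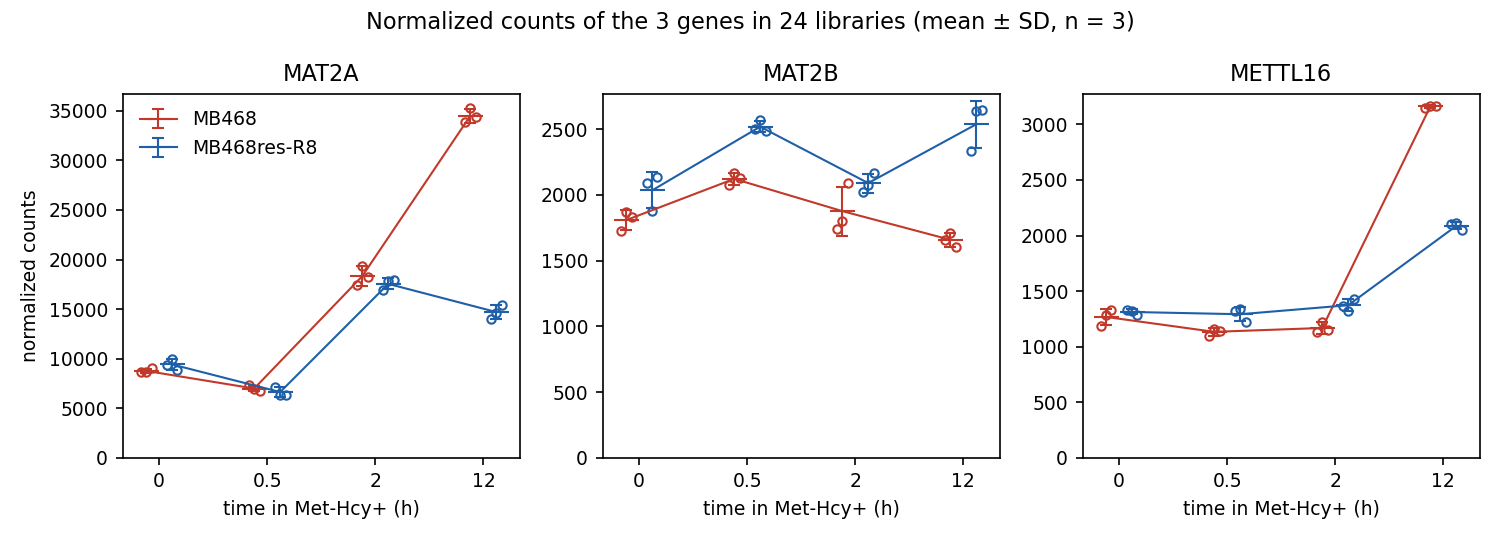
Normalized counts (y axis, from 0) of MAT2A, MAT2B, and METTL16 against time in Met-Hcy+ medium (x axis, h, evenly spaced and not to scale). Circles are libraries, bars are mean ± SD of 3, and the line joins the means, red for MB468 and blue for MB468res-R8. MAT2A reached 34507 in MB468 and 14700 in MB468res-R8 at 12 h after near-equal values at 2 h, METTL16 rose late in both lines, and MAT2B ended higher in MB468res-R8.

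MAT2A mRNA fell within 0.5 h of the switch in both lines. The 3 MB468 libraries at 0.5 h were at 7304, 6895, and 6769 normalized counts, all below the 3 at 0 h. Those of MB468res-R8 were at 7191, 6336, and 6374, again all below 0 h. The fall was -0.32 (SE 0.0479, adjusted p = 7.94e-07) in MB468 and -0.51 (SE 0.0478, adjusted p = 4.28e-11) in MB468res-R8 in edgeR's quasi-likelihood test, in comparisons that called 33.9% and 33.7% of all genes. The falls under spike-in library sizes were -0.54 and -0.45, and both passed. The difference between these falls, -0.18 (95% interval -0.32 to -0.04), missed the threshold (adjusted p = 0.189), in a comparison that called 2.9% of genes. Without MB468res-R8 0.5 h replicate 1, the highest of its group, that difference was -0.24 and passed (adjusted p = 0.0408), and under spike-in library sizes it was 0.09 (adjusted p = 0.735).

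By 2 h MAT2A had risen in both lines, by about 2-fold on the scale in which the bulk of genes does not move. The MB468 libraries stood at 17423, 19384, and 18187 normalized counts and the MB468res-R8 libraries at 16894, 17797, and 17937, all above every library at 0 h and 0.5 h. The fold over 0 h was 2.09 in MB468 (log2 1.06, SE 0.0476, adjusted p = 8.6e-20) and 1.86 in MB468res-R8 (log2 0.90, SE 0.0472, adjusted p = 2.76e-16). The rise in MB468 under spike-in library sizes was 0.65 (adjusted p = 1.04e-05) and the MB468res-R8 rise 0.85 (adjusted p = 2.03e-08), so that the order of the lines turned. In MB468res-R8 at 2 h, where 4.37% of genes were called, MAT2A had the lowest p of all 14741 genes tested. In MB468 at 2 h, where 16.3% were called, it ranked 13 by p, and its change without the library high in RN7SK was 1.02. The lines did not differ detectably at 2 h in the level of MAT2A (-0.06, adjusted p = 0.259, 95% interval -0.16 to 0.03). Nor did the difference of the responses pass (-0.17, adjusted p = 0.169, 95% interval -0.30 to -0.03), in comparisons that called 56.1% and 5.07% of genes. That difference under spike-in library sizes was 0.20 (adjusted p = 0.351).

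Between 2 h and 12 h the lines parted. MAT2A in MB468 rose to 33864, 35287, and 34371 normalized counts, while in MB468res-R8 it stood at 14029, 14616, and 15453, below each of its own libraries at 2 h. The step from 2 h to 12 h was 0.91 in MB468 (SE 0.0468, adjusted p = 1.62e-19, 69.7% of genes called) and -0.26 in MB468res-R8 (SE 0.0466, adjusted p = 1.1e-05, 62.5% called). The step in MB468res-R8 was -0.18 and lost the call under spike-in library sizes (adjusted p = 0.251).

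At 12 h MAT2A was 3.94 times its 0 h level in MB468 (log2 1.98, SE 0.0482, adjusted p = 2.1e-29) and 1.56 times in MB468res-R8 (log2 0.64, SE 0.0472, adjusted p = 1.69e-14). These comparisons called 70.8% and 61.3% of all genes, so a call by itself says little, and MAT2A ranked 33 by p in MB468. The response in MB468res-R8 minus that in MB468 was -1.34 (SE 0.0665, adjusted p = 3.48e-19), where 56.5% of genes were called and the gene ranked 120 by p. The level of MAT2A at 12 h was 0.426 times as high in MB468res-R8 as in MB468 (log2 -1.23, SE 0.0469, adjusted p = 1.19e-23, 73.1% of genes called). As a share of all gene counts, MAT2A went from 0.0386% at 0 h to 0.161% at 12 h in MB468, and MB468res-R8 went from 0.0411% to 0.0632%.

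In the order of the 8 groups MAT2A was highest in MB468 at 12 h and next in MB468 at 2 h and MB468res-R8 at 2 h, whose libraries overlapped. MB468res-R8 at 12 h followed, then both lines at 0 h, which overlapped, and then both lines at 0.5 h, which overlapped too.

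The last 562 bases of MAT2A (chr2:85544720-85545281, 12.53% of its 4485 merged exon bases) are shared with GGCX, the vitamin K-dependent carboxylase gene on the opposite strand, and 4 of the 6 target sites lie in that stretch. Merged exons include transcripts that retain an intron. The longest MAT2A transcript is 2817 bases, so the stretch can be a larger part of a single mRNA. The library kit does not mark strand, so reads there cannot be assigned to either gene by strand, and how they were counted is not given in the sources used here, nor is how reads shared with MAT2AP1, a pseudogene of MAT2A, were treated. GGCX averaged 2220 normalized counts at 0 h and 2670 at 12 h in MB468 (log2 0.27, adjusted p = 1.2e-05), and 2650 and 2370 in MB468res-R8 (-0.16, adjusted p = 0.00793). The highest group mean of GGCX was 2720, below the lowest of MAT2A, 6634. These whole-gene counts do not show how many reads fell in the shared stretch.

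MAT2B, the regulatory subunit, moved little and in another order than MAT2A. At 0.5 h, when MAT2A was low, MAT2B was at 2074, 2164, and 2126 normalized counts in MB468 and at 2498, 2567, and 2488 in MB468res-R8, above every library of the same line at 0 h. The rise was 0.23 (SE 0.0566, adjusted p = 0.00125) in MB468 and 0.31 (SE 0.0554, adjusted p = 2.02e-05) in MB468res-R8, and the difference of 0.08 did not pass (adjusted p = 0.766), nor did its spike-in value of 0.33 (adjusted p = 0.362). Under spike-in library sizes these rises were 0.02 (adjusted p = 0.943) and 0.35 (adjusted p = 0.0519) and neither passed. The level of MAT2B at 0.5 h was higher in MB468res-R8 by 0.25 (SE 0.0557, adjusted p = 0.000273), where 49% of genes were called between the lines, and by 0.20 under spike-in library sizes (adjusted p = 0.283).

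At 2 h, when MAT2A had risen, MAT2B was back among its 0 h values. It stood at 1736, 1803, and 2088 in MB468 and at 2025, 2076, and 2166 in MB468res-R8, overlapping 0 h in both lines. Its changes were 0.06 (95% interval -0.06 to 0.18, adjusted p = 0.594) and 0.04 (-0.08 to 0.15, adjusted p = 0.875). Under spike-in library sizes the MB468 value was -0.37 and passed (adjusted p = 0.0106), near the -0.42 of the median gene, and the MB468res-R8 value was -0.01 (adjusted p = 1). The difference of the responses at 2 h, -0.02 (adjusted p = 0.951), was 0.36 there (adjusted p = 0.131). MB468res-R8 was higher by 0.15 at 2 h (SE 0.0575, adjusted p = 0.0249), although the lines overlapped, and this call was lost without MB468 2 h replicate 1 (0.09), MB468 2 h replicate 2 (0.12), or MB468res-R8 2 h replicate 3 (0.12), and under spike-in library sizes (0.22, adjusted p = 0.186).

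At 12 h the mRNA of the regulatory subunit went opposite ways in the lines. MAT2B was at 1657, 1713, and 1603 in MB468, each below all 3 libraries at 0 h, and at 2331, 2636, and 2642 in MB468res-R8, each above. The change was -0.13 in MB468 (SE 0.0558, adjusted p = 0.0427), a call that was lost without MB468 0 h replicate 2 (-0.10) or without MB468 12 h replicate 1 (-0.14) or 3 (-0.11). Under spike-in library sizes the MB468 change was -0.36 (adjusted p = 0.0133), where the median of all genes was -0.23. The change in MB468res-R8 was 0.32 (SE 0.0551, adjusted p = 4.29e-06). The difference of the responses was 0.44 (SE 0.0784, adjusted p = 6.73e-06). Under spike-in library sizes it was 0.70 (adjusted p = 0.000811), where the median of all genes was 0.20. The level was 1.53 times as high in MB468res-R8 (log2 0.61, SE 0.0548, adjusted p = 6.1e-13). The step from 2 h to 12 h was -0.18 in MB468 (SE 0.0573, adjusted p = 0.0046) and 0.28 in MB468res-R8 (SE 0.0549, adjusted p = 2.77e-05). The MB468 step was -0.10 without MB468 2 h replicate 3 and 0.02 under spike-in library sizes, and passed in neither (adjusted p = 0.151 and 0.93).

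MAT2B was highest in MB468res-R8 at 12 h and at 0.5 h, whose libraries overlapped, and lowest in MB468 at 12 h, which overlapped no neighbour. The 5 groups from MB468 at 0.5 h (mean 2121) down to MB468 at 0 h (mean 1807) each overlapped the next among them.

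**Figure D2:**
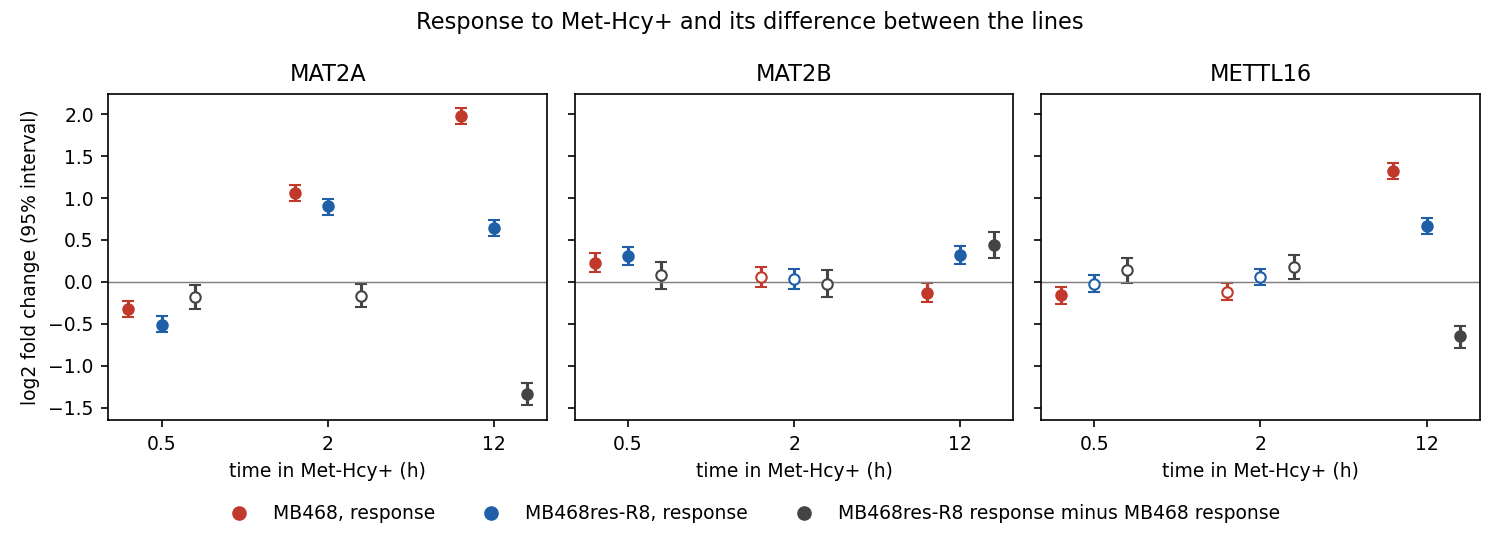
Log2 fold change against 0 h (y axis) at 0.5, 2, and 12 h in Met-Hcy+ (x axis, evenly spaced) for MB468 (red), MB468res-R8 (blue), and the difference of the responses, MB468res-R8 minus MB468 (grey). Bars are 95% intervals, filled points passed an adjusted p of 0.05 and open points did not. The differences that passed are the 3 at 12 h, at -1.34 for MAT2A, 0.44 for MAT2B, and -0.65 for METTL16.

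METTL16, the methyltransferase, was not called higher in either line before 12 h. At 0.5 h it was at 1096, 1163, and 1141 normalized counts in MB468, all below 0 h, and at 1317, 1337, and 1221 in MB468res-R8, overlapping 0 h. The MB468 change of -0.16 passed (SE 0.0506, adjusted p = 0.0114) but not without MB468 0.5 h replicate 1 (-0.15, adjusted p = 0.0516), and the MB468res-R8 change was -0.02 (95% interval -0.12 to 0.08, adjusted p = 0.776). These were, under spike-in library sizes, -0.37 (adjusted p = 0.0275) and 0.03 (adjusted p = 0.952). At 2 h METTL16 was at 1132, 1226, and 1147 in MB468 and at 1368, 1319, and 1431 in MB468res-R8, and both groups overlapped their 0 h libraries. Neither change passed, at -0.12 (95% interval -0.22 to -0.01, adjusted p = 0.122) and 0.06 (-0.04 to 0.16, adjusted p = 0.709). The MB468 change at 2 h passed without MB468 0 h replicate 1 (-0.16, adjusted p = 0.0415) and under spike-in library sizes (-0.54, adjusted p = 0.000553). Thus MAT2A stood at 2.09 times and METTL16 at 0.921 times its own 0 h value in MB468 at 2 h.

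At 12 h METTL16 rose in both lines, and more in MB468. The 3 MB468 libraries stood at 3148, 3169, and 3168 normalized counts, and the 3 MB468res-R8 libraries at 2101, 2109, and 2049, with no overlap between the lines or with any earlier time. The fold over 0 h was 2.5 in MB468 (log2 1.32, SE 0.0468, adjusted p = 1.32e-25) and 1.59 in MB468res-R8 (log2 0.67, SE 0.0478, adjusted p = 2.07e-15). The steps from 2 h to 12 h were 1.44 (SE 0.0489, adjusted p = 3.63e-26) and 0.61 (SE 0.0475, adjusted p = 2.41e-14). The difference of the 12 h responses was -0.65 (SE 0.0668, adjusted p = 4.98e-11), and under spike-in library sizes it was -0.39 and did not pass (adjusted p = 0.0773), where the median of all genes was 0.20.

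Between the lines METTL16 changed sides with time. MB468res-R8 was the higher at 0.5 h by 0.19 (SE 0.0508, adjusted p = 0.0016) and at 2 h by 0.23 (SE 0.0513, adjusted p = 0.000178), with no overlap of libraries, and neither passed under spike-in library sizes (0.14 and 0.30, adjusted p = 0.486 and 0.074). At 12 h it was the lower, at 0.66 times the MB468 level (log2 -0.60, SE 0.0449, adjusted p = 2.52e-15). The differences of the responses at 0.5 h (0.14, adjusted p = 0.406) and 2 h (0.18, adjusted p = 0.17) did not pass, nor did the spike-in values of 0.40 and 0.55 (adjusted p = 0.336 and 0.0515). MB468 at 12 h and MB468res-R8 at 12 h led the order of groups without overlap, and the other 6 groups, from 1373 down to 1133, each overlapped the next.

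The ratio of MAT2A to its partners summarises these courses, as a description with no test. MAT2A per MAT2B, from RPKM in the same library, was 9.42 ± 0.39 in MB468 at 0 h, 6.4 ± 0.377 at 0.5 h, 19.1 ± 2.01 at 2 h, and 40.4 ± 1.05 at 12 h. In MB468res-R8 it was 9.04 ± 1.15, 5.11 ± 0.416, 16.3 ± 0.298, and 11.3 ± 0.466. The lines were thus within their spread at 0 h and far apart at 12 h, when MAT2A mRNA had risen and MAT2B mRNA had not in MB468. MAT2A per METTL16 went from 13.8 ± 0.561 to 31.2 ± 0.51 at 2 h and 21.7 ± 0.392 at 12 h in MB468, and from 14.3 ± 0.676 to 25.5 ± 1.22 and 14 ± 0.884 in MB468res-R8. In both lines this ratio was highest at 2 h, when MAT2A had risen and METTL16 had not, and in MB468res-R8 it was back within the spread of 0 h at 12 h.

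**Figure D3:**
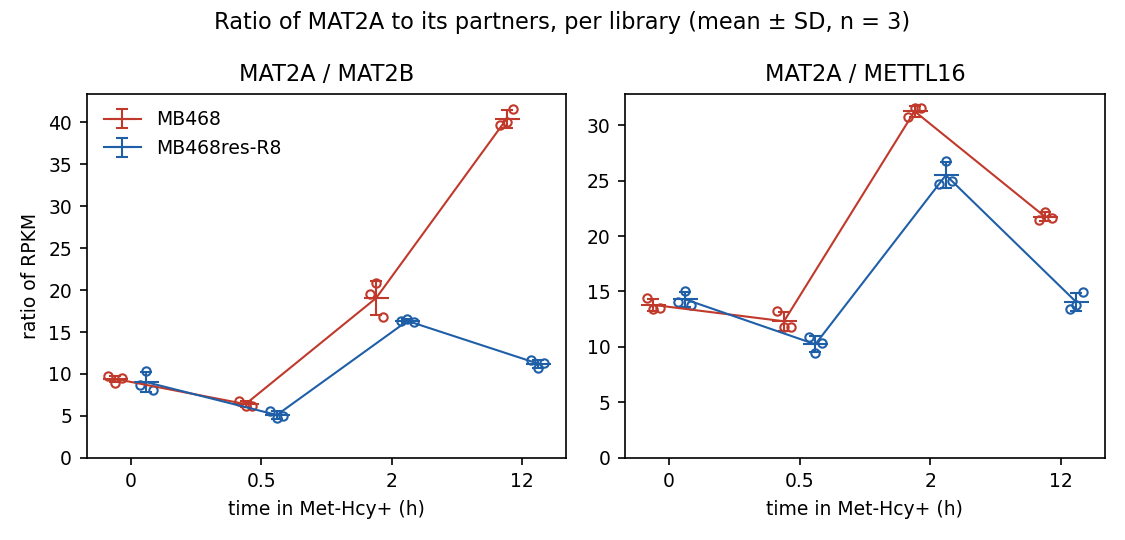
Ratio of RPKM (y axis, from 0) of MAT2A to MAT2B (left) and of MAT2A to METTL16 (right) in each library against time in Met-Hcy+ (x axis, h, evenly spaced). Circles are libraries and bars are mean ± SD of 3, red for MB468 and blue for MB468res-R8. MAT2A per MAT2B rose to 40.4 in MB468 at 12 h and was 11.3 in MB468res-R8, and MAT2A per METTL16 peaked at 2 h in both lines.

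Across the 24 libraries, the log2 CPM of MAT2A and METTL16 correlated at a Pearson r of 0.733, MAT2A and MAT2B at -0.497, and MAT2B and METTL16 at -0.212. METTL16 ranked only 323 by r with MAT2A among the genes whose log2 CPM averaged 5 or more. The libraries fall into 8 groups, and these values describe the group pattern. Among the 6390 other genes whose log2 CPM averaged 5 or more, the 5 most like MAT2A were ZNF317 (r = 0.919), STK24 (0.919), TOPORS (0.918), CCND1 (0.91), and ISG20L2 (0.907). Of these, CCND1 is cyclin D1, and in MB468 at 12 h the 5 changed by 0.42 to 0.90, less than MAT2A. The genes most like MAT2B were CDK1 (r = 0.957), PRC1 (0.954), ATR (0.947), IPO8 (0.942), and SLC25A24 (0.94), of which CDK1 drives entry into mitosis and ATR is a DNA damage checkpoint kinase. Those most like METTL16 were CASP8 (r = 0.98), WDR4 (0.98), CDCA5 (0.971), TMEM11 (0.971), and USP10 (0.97), of which CASP8 is an apoptotic protease and WDR4 the partner of a transfer RNA methyltransferase.

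The wider pathway was read from 5 hand-written lists of 62 genes, of which 58 were tested. BHMT2, NNMT, INMT, and AS3MT were below the count filter, with at most 9 raw counts in any library. In MB468res-R8 at 2 h, when MAT2A had risen 1.86-fold, 0 of the 58 list genes were called in edgeR's quasi-likelihood test, with 9 at an unadjusted p under 0.05, where 4.37% of all genes were called. DESeq2's Wald test and spike-in library sizes also called 0. Spike-in library sizes called 115 of all 14741 genes higher and 65 lower there, so 0 of 58 is close to that background. The shares of all genes in the Wald test and at that unadjusted p are not given here. In MB468 at 2 h, where 16.3% of all genes were called, 5 of the 58 were called higher and 8 lower, and the highest of these, RBM15 of the m6A writer complex, rose by 0.79 (adjusted p = 6.61e-14). Under spike-in library sizes these counts were 1 and 42, where 240 of all 14741 genes were called higher and 9271 lower (median -0.42).

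The counts at 12 h that follow stand beside 70.8% of all genes called in MB468 and 61.3% in MB468res-R8, with medians over all genes of 0.01 and -0.02. The counts under spike-in library sizes have another background. There, of all 14741 genes, 2538 were called higher and 5922 lower in MB468, and 2766 and 3121 in MB468res-R8. The list of MAT1A and the processing factors of MAT2A mRNA (the m6A reader YTHDC1 and the cleavage factor I subunits NUDT21, CPSF6, and CPSF7) had 5 tested genes. In MB468 at 12 h, 1 was higher and 2 lower (60% called), with a median log2 fold change of -0.02, and in MB468res-R8, 3 were higher and 1 lower (80%), with a median of 0.11. With 5 genes these shares say little beside those of all genes. Under spike-in library sizes these were 0 and 2 in MB468 and 2 and 1 in MB468res-R8. MAT1A fell in both lines, from 84.2 to 55.5 normalized counts in MB468 (-0.59, adjusted p = 0.00735) and from 71.7 to 38.1 in MB468res-R8 (-0.87, adjusted p = 0.000576), while MAT2A rose. CPSF7 rose by 0.40 in MB468, and NUDT21 and CPSF6 rose by 0.36 and 0.39 in MB468res-R8. Mean normalized counts of CPSF7 went from 3794 to 4099 in MB468res-R8. In MB468 those of NUDT21 went from 12809 to 10922 and those of CPSF6 from 3012 to 2961. YTHDC1 had at most 189 raw counts in any library and uneven replicates (54.7 ± 76.9 normalized counts in MB468 at 12 h), and no change of it was called at 2 or 12 h.

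The m6A writers, erasers, and readers, without METTL16, had 21 genes, all tested. In MB468 at 12 h, 14 were higher and 5 lower (90.5% called, beside 70.8% of all genes), with a median of 0.50 beside 0.01. In MB468res-R8, 15 were higher and 1 lower (76.2%, beside 61.3%), with a median of 0.26 beside -0.02. Under spike-in library sizes these were 10 and 6 in MB468 and 9 and 1 in MB468res-R8. Of all 14741 genes, that scaling called 2538 higher and 5922 lower in MB468, and 2766 and 3121 in MB468res-R8. The largest rises, in MB468 at 12 h, were those of the writer adaptors RBM15 (1.85, adjusted p = 4.17e-28) and RBM15B (1.25, adjusted p = 3.82e-26) and of the readers YTHDF2 (1.39, adjusted p = 2.92e-27) and IGF2BP2 (1.36, adjusted p = 1.88e-24). In MB468res-R8 the values were 0.03 for RBM15 (adjusted p = 0.722), 0.35 for YTHDF2 (adjusted p = 1.7e-08), and 0.37 for IGF2BP2 (adjusted p = 2.59e-07). METTL16 rose by 1.32 and 0.67 in the same comparisons.

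Of the 15 methionine cycle genes tested, 5 were higher and 5 lower in MB468 at 12 h (66.7% called, beside 70.8% of all genes, median -0.07, and 1 and 8 under spike-in library sizes), and 7 were higher and 5 lower in MB468res-R8 (80%, beside 61.3%, median 0.12, and 6 and 4). MTRR, the reductase that reactivates methionine synthase, rose by 0.99 in MB468 (adjusted p = 3e-22) and by 0.68 in MB468res-R8 (adjusted p = 4.04e-16). CBS and CTH, the enzymes that carry Hcy on to cysteine, went down in MB468res-R8. CBS fell by 1.63 (adjusted p = 2.23e-12) and CTH fell by 1.20 (adjusted p = 5.06e-07). In MB468 the mean normalized counts from 0 h to 12 h went from 573 to 482 for CBS and from 744 to 903 for CTH. BHMT, which methylates Hcy with betaine, was near the detection limit, with at most 14 raw counts in any library, and its mean fell from 9.24 to 3.34 normalized counts in MB468res-R8 (adjusted p = 0.0449).

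Of the 9 SAM-using small-molecule methyltransferases and related genes tested, 1 was higher and 6 lower in MB468 at 12 h (77.8% called, beside 70.8% of all genes, median -0.39, and 0 and 6 under spike-in library sizes), and 3 were higher and 1 lower in MB468res-R8 (44.4%, beside 61.3%, median 0.06, and 2 and 1). HNMT, which methylates histamine, fell by 0.67 in MB468 (adjusted p = 2.91e-10), and PCMT1, a protein repair methyltransferase, fell by 0.48 (adjusted p = 1.09e-11). ICMT, which methylates prenylated proteins, rose by 0.33 (adjusted p = 1.78e-10). In MB468res-R8 the mean normalized counts from 0 h to 12 h went from 586 to 430 for HNMT. They went from 2047 to 2306 for PCMT1 and from 6657 to 8229 for ICMT.

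SAMTOR, the protein through which SAM is read upstream of mTORC1, and the GATOR1 and KICSTOR complexes it acts through made up the last list, with 8 tested genes. In MB468 at 12 h, 4 were higher and 2 lower (75% called, beside 70.8% of all genes, median 0.19, and 3 and 2 under spike-in library sizes), and in MB468res-R8, 1 was higher and 4 lower (62.5%, beside 61.3%, median -0.21, and 1 and 0). SAMTOR rose by 1.0 in MB468 (adjusted p = 1.12e-08) and stood at 0.32 in MB468res-R8 (adjusted p = 0.0745). Of the KICSTOR subunits in MB468, KICS2 rose by 1.21 (adjusted p = 1.36e-12) and ITFG2 by 0.79 (adjusted p = 2.46e-08), and KPTN fell by 0.58 (adjusted p = 6.06e-07). In MB468res-R8 the mean normalized counts from 0 h to 12 h went from 201 to 180 for KICS2. They went from 215 to 302 for ITFG2 and from 442 to 357 for KPTN.

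**Figure D4:**
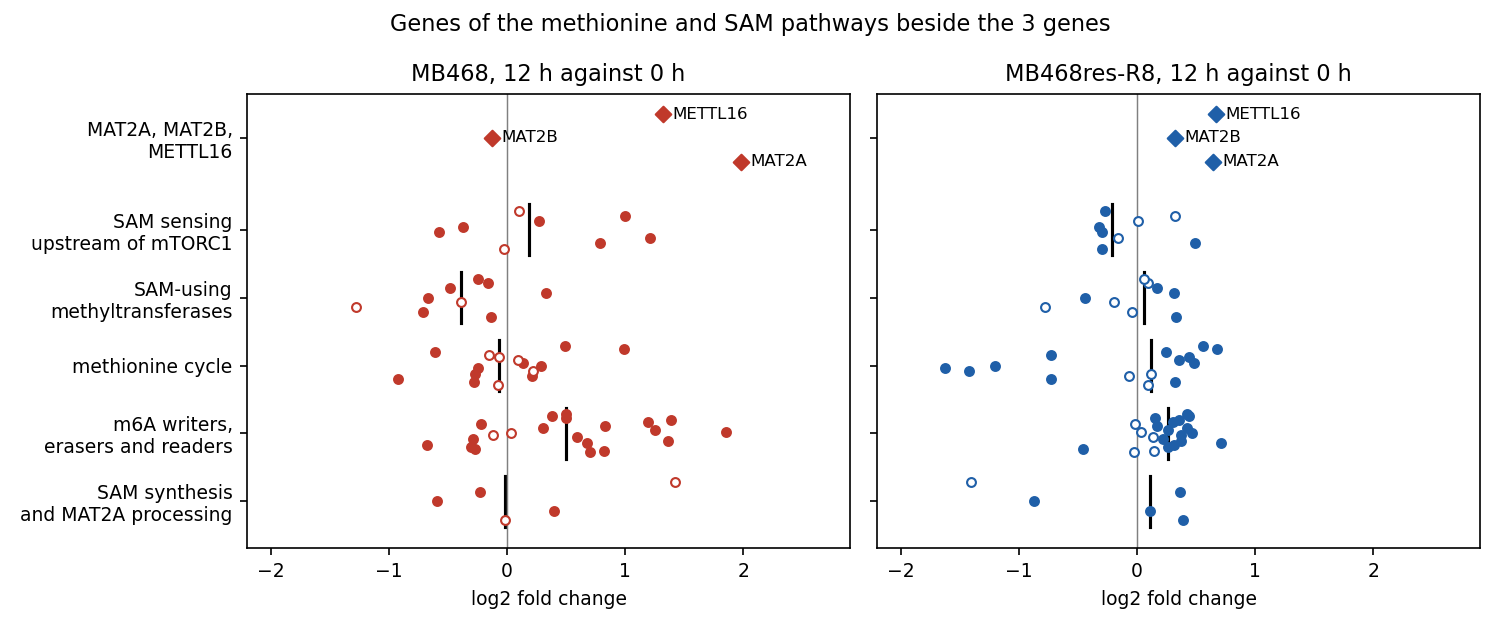
Log2 fold change at 12 h against 0 h (x axis) in MB468 (left) and MB468res-R8 (right) for the tested genes of 5 lists (rows) and for MAT2A, MAT2B, and METTL16 (diamonds). Each circle is a gene, filled where it passed an adjusted p of 0.05 and open where it did not, and the black bar is the list's median. MAT2A in MB468, at 1.98, lay above every list gene shown there, of which RBM15 was highest at 1.85.

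The chromosomal neighbours of the 3 genes were counted between the lines as well. Of the 10 tested neighbours of MAT2A, 5 on each side, 4 were higher and 1 lower in MB468res-R8 at 0 h, with a median of 0.15, where 53.5% of all genes were called. Of those of MAT2B, 4 were higher and 5 lower (median -0.21, from -1.76 to 2.88), and of those of METTL16, 1 was higher and 4 lower (median -0.10). In MB468 at 12 h, where 70.8% of all genes were called, 4 neighbours of MAT2A were higher and 4 lower (median 0.12). Those of MAT2B were 3 higher and 6 lower (median -0.36), and those of METTL16 were 3 higher and 4 lower (median -0.12). The genes themselves changed by 1.98, -0.13, and 1.32.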

How the data were processed

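RNA was measured in 24 libraries of MB468 and MB468res-R8 cells, 3 per group, grouped by the labels' titles. The deposited table holds raw counts per gene, which the authors made from poly(A) RNA read from 1 end over 100 bases, aligned to a reference of GRCh38/hg38 plus the spike-ins, with HISAT2 (2.1.0 in the submitters' processing notes, which also name Subread 1.5.3 and DESeq 1.22.2) and featureCounts. The gene annotation and strand setting are not given in the sources used here. A table of normalized counts and a table of the authors' own fold changes and p-values were not used.

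The 92 spike-ins were left out of the fit. The analysis used edgeR 4.0.16 and limma 3.58.1 under R 4.3.3. Of 26645 genes, filterByExpr (minimum count 10, minimum total 15) kept 14741. Library sizes carried TMM factors, and a robust quasi-likelihood fit with 1 mean per group over all 24 libraries gave each of 15 comparisons. The study's methods name RUVSeq for unwanted sample variation and DESeq2 for normalization and testing. DESeq2 was run here as an alternative (DESeq2 1.42.0) with group means only and no RUVSeq factor, so it does not repeat the study's own procedure. Calls are at 0.05 after Benjamini-Hochberg adjustment over all genes tested. SE is the log2 fold change divided by the square root of the F statistic. RPKM used merged exons of GENCODE release 44, and folds came from RNAfold 2.7.2. The fit was tested on simulated counts.

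The members and lists were chosen with earlier results of these data known. Genes named are the 3 members, up to 4 per list with the largest change among those called at 2 or 12 h in either line, genes below the filter, the 5 genes most like each member, genes that overlap a member, and the markers. A gene that the rule names is not reported here. YTHDC1 is named in addition for its role, and was chosen after its values were seen.

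The alternatives tried were a block for the replicate number, library sizes from spike-in totals or from DESeq2, a Wald test in DESeq2, fits to the groups compared alone, no count filter or one of 10 counts in each library, a threshold of 0.01, each library left out, and the longest transcript as length. Libraries held from 11713037 to 36402932 gene counts, of which spike-ins added 0.201% to 0.303%. Intervals cover the fitted spread between libraries.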

Additional observations from a re-analysis of the deposited data

Results flagged for a closer look

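The responses of the lines to 12 h in Met-Hcy+ medium differed in each of the 3 genes by a test of the difference itself in edgeR's quasi-likelihood fit. The response of MAT2A in MB468res-R8 minus that in MB468 was -1.34 on the log2 scale (adjusted p = 3.48e-19), where it rose by 1.98 in MB468 and by 0.64 in MB468res-R8. The difference for METTL16 was -0.65 (adjusted p = 4.98e-11), where it rose by 1.32 and 0.67, and under spike-in library sizes it was -0.39 and did not pass (adjusted p = 0.0773). The difference for MAT2B was 0.44 (adjusted p = 6.73e-06), where the change was -0.13 in MB468 against 0.32 in MB468res-R8. In the same comparison 56.5% of all genes tested were called, and the responses of each line share its 0 h libraries with those at 0.5 and 2 h.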

How the results depend on the processing

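Of 360 values of the 3 genes under 8 alternatives, 336 kept their direction and side of the threshold, as did 302 of 324 values with a library left out. DESeq2's size factors, its Wald test, both count filters, and the replicate block changed no call. With the replicate block the 12 h differences of the responses were -1.34 for MAT2A, 0.44 for MAT2B, and -0.66 for METTL16. The numbers share no stated batch or day, and the mean correlation of deviations was -0.0199 for libraries of the same number and 0.0105 for others, with 1 of 28 group pairs over 0.1 throughout.

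Spike-in library sizes reversed 10 values, namely MAT2B at 2 h in MB468 (-0.37) and MB468res-R8 (-0.01), in the MB468 step from 2 h to 12 h (0.02), between the lines at 0 h (-0.14), and in the difference of the responses at 2 h (0.36), MAT2A between the lines at 0 h (-0.21) and in the differences of the responses at 0.5 h (0.09) and 2 h (0.20), and METTL16 between the lines at 0 h (-0.26) and at 0.5 h in MB468res-R8 (0.03). METTL16 at 2 h in MB468 passed (-0.54). Calls lost there were MAT2B at 0.5 h in MB468 (0.02) and MB468res-R8 (0.35), MAT2B between the lines at 0.5 h (0.20) and 2 h (0.22), METTL16 between the lines at 0.5 h (0.14) and 2 h (0.30), the METTL16 difference of the responses at 12 h (-0.39), and the MAT2A step in MB468res-R8 (-0.18). The median of all genes moved in the same scaling, by -0.42 in MB468 at 2 h.

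At an adjusted p of 0.01, METTL16 at 0.5 h in MB468 (-0.16) and MAT2B at 12 h in MB468 (-0.13) and between the lines at 0 h (0.17) and 2 h (0.15) did not pass. Fitted to the groups compared alone, MAT2A between the lines at 0 h passed (0.10, adjusted p = 0.036); the cause was not tested.

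Leaving out each library gave these ranges where a call or a sign changed. MAT2A between the lines ran from 0.06 to 0.15 at 0 h and from -0.13 to -0.04 at 0.5 h, and its difference of the responses at 0.5 h from -0.24 to -0.13. MAT2A between the lines passed without MB468res-R8 0 h replicate 3 (0.15) and without MB468res-R8 0.5 h replicate 1 (-0.13). MAT2B ran from 0.14 to 0.23 between the lines at 0 h and from 0.09 to 0.24 at 2 h, from -0.16 to -0.10 in MB468 at 12 h, and from -0.24 to -0.10 in the MB468 step. Of values near 0 that had not passed, 7 turned in sign: MAT2B at 2 h ran from -0.03 to 0.12 in MB468, from -0.02 to 0.07 in MB468res-R8, and from -0.08 to 0.07 in the difference of the responses, and METTL16 at 0.5 h in MB468res-R8 from -0.05 to 0.02. METTL16 in MB468 ran from -0.21 to -0.14 at 0.5 h and from -0.16 to -0.09 at 2 h.

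Under spike-in library sizes the list genes called in MB468 at 2 h were 3 for MAT2A processing, 15 for m6A, 13 for the methionine cycle, 7 for SAM-using enzymes, and 5 for SAM sensing upstream of mTORC1, and in MB468res-R8 at 12 h they were 10 for m6A and 1 for SAM sensing. Of all 14741 genes tested, the same scaling called 240 higher and 9271 lower in MB468 at 2 h. It called 2766 higher and 3121 lower in MB468res-R8 at 12 h. With the longest transcript as length, mean RPKM over 24 libraries was 228 for MAT2A (143 with merged exons), 20.7 for MAT2B (10.5), and 12.3 for METTL16 (7.87).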
